A study of Homo sapiens with 6 samples.

Results

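The peptidylarginine deiminases are a family of 5 genes, PADI1, PADI2, PADI3, PADI4 and PADI6, which lie side by side on the short arm of chromosome 1. All 5 were found by symbol among the 60675 Ensembl gene identifiers of the count table. The family was selected on the measured rise of PADI2, which was about 10 times higher in RARG-KO, so the values of the PADI genes in that contrast are given as a description, without a test. RNA was sequenced from PANC1, an established human pancreatic cancer line grown in medium with 10% fetal bovine serum, in 3 wild-type (WT) libraries with no treatment and in 3 libraries of RARG-KO cells, in which RARG, the gene of retinoic acid receptor gamma, was targeted by transfection of a Cas9 plasmid with a pair of guide RNAs, puromycin selection and the expansion of clones. The sources used here do not say how many clones the RARG-KO libraries represent, whether the WT cells went through transfection and selection, or whether the replicates were separate cultures.

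Peptidylarginine deiminases are calcium-dependent enzymes that convert arginine within proteins to citrulline, which removes a positive charge. PADI2 is the member with the widest distribution, known from brain, muscle, glands and macrophages, and acts on histones and on the tail of RNA polymerase II. PADI1 and PADI3 serve the differentiation of epidermis and hair follicles, PADI4 is best known from neutrophils, where it deiminates histones, and PADI6 belongs to the oocyte and early embryo and has no established enzymatic activity.

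The region upstream of the gene start is shown for the member with the most reads and for 2 others of the cluster, because these windows differ in composition. The sequences are those of RefSeq on GRCh38.p14, whose promoter table held 4 of the 5 members, all but PADI3. Each runs 5′ to 3′ along its gene over the 250 bases before the annotated start. Capitals mark matches on either strand to letters of known motifs. These were the GC box, GGGCGG, the CCAAT box by its own letters, the TATA box as TATAAA, the AP-1 site as TGANTCA, and the half-site of nuclear receptors in the form AGGTCA or, with another first base, GGGTCA. The windows are chr1:17119452-17119701 (minus strand) for PADI2, chr1:17204878-17205127 (plus strand) for PADI1 and chr1:17307947-17308196 (plus strand) for PADI4.
PADI2: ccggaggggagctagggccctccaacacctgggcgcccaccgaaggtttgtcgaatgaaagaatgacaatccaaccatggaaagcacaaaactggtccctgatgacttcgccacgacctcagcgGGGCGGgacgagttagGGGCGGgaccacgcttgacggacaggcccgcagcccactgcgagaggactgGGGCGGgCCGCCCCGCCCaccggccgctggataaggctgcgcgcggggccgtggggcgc
PADI1: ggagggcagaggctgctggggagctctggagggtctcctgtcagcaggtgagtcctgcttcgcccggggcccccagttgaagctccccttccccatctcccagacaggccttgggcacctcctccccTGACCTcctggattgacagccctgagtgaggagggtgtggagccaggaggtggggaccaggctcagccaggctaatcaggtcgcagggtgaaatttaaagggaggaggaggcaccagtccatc
PADI4: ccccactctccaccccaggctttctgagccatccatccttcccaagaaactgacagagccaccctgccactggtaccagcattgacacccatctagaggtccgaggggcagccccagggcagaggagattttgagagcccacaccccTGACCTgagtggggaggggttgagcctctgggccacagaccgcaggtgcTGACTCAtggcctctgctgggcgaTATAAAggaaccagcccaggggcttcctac

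The PADI2 window held 24 CpG dinucleotides, against 3 in the PADI1 window, 3 in the PADI4 window and 2 in that of PADI6. The median over the 27305 promoters of the table was 11, and 23.3% of them had at least as many as PADI2. GGGCGG occurred 5 times in the PADI2 window, the nearest match ending 42 bases before the start, with 2 of the matches sharing a base. A match to GGGCGG was present in 42.3% of all promoters and 5 or more in 4.20%. The PADI1, PADI4 and PADI6 windows had none.

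None of the other letters searched was in the PADI2 window. The PADI1 and PADI4 windows each had 1 match to AGGTCA, which 12.1% of promoters have, and the PADI6 window 1 match to GGGTCA, which 12.2% have. In the PADI4 window TATAAA (11.1% of promoters) lay 30 to 25 bases before the start, and TGANTCA (6.60%) was also matched. CCAAT (33.0%) was matched in the PADI6 window only. A match describes letters in a window and shows no binding.

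The depth of the libraries ran from 29386408 to 31608089 counts. Below, levels are CPM (counts scaled to the library size), given as mean ± SD of n = 3 libraries, and log2 fold changes are RARG-KO over WT, given ± SE. The targeted gene RARG (ENSG00000172819) kept 66.8% of its WT level, with 27.0 ± 2.53 CPM after 40.4 ± 1.28 in WT. A count over the whole gene does not show whether a part of it was deleted. Over all genes, 9854 of the 16996 tested (58.0%) differed between the groups in the edgeR test at an adjusted p of 0.05, 28.7% higher and 29.3% lower in RARG-KO. The line's ductal markers were measured, 9 of 9 passing the filter on low counts. Their summed level was 4176 to 4251 CPM in WT and 2792 to 2843 CPM in RARG-KO, with KRT19 (log2 -2.11 ± 0.04), KRT8 (-1.10 ± 0.03) and KRT18 (-1.03 ± 0.03) among 6 that fell and CDH1 (2.05 ± 0.12) and CD44 (0.26 ± 0.03) rising. KRT8 and KRT18 overlap on opposite strands. The mitochondrial share of the counts did not overlap between the groups and was the higher in RARG-KO, at 3.97% in the middle WT library and 5.21% in the middle one of RARG-KO, and its part in the values below was not tested.

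PADI2 (ENSG00000117115, chromosome 1, 17066761 to 17119435, GRCh38, minus strand) was the dominant member in both groups. Its CPM values were 52.5, 58.1 and 56.3 in WT replicates 1, 2 and 3, from 1517, 1742 and 1692 reads. They were 594, 571 and 620 in RARG-KO replicates 1, 2 and 3, from 19006, 17527 and 19483 reads. The 3 RARG-KO libraries lay close together and far above every WT library, and the lowest RARG-KO value exceeded the highest WT value by far more than the range within either group.

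The means were 55.6 ± 2.87 CPM in WT and 595 ± 24.6 CPM in RARG-KO (SD, n = 3), with coefficients of variation of 5.16% and 4.14%. The fitted log2 fold change was 3.42 ± 0.04 (SE), or 10.7-fold. Leaving out any 1 library moved this value only between 3.38 and 3.45. In bulk libraries, a larger share of cells with the transcript and more transcript per cell cannot be told apart.

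Among the 11279 genes with a mean of at least 5 CPM in the higher group, PADI2 stood at rank 32 by log2 fold change. Per length, PADI2 had 9.30 ± 0.48 RPKM in WT and 99.4 ± 4.11 RPKM in RARG-KO (CPM per kilobase of annotated exon, SD, n = 3). On this scale PADI2 moved from rank 4714 to rank 304 among 19693 protein-coding genes. Of the other protein-coding genes at or above PADI2 per length in RARG-KO, 7 had a log2 fold change of at least 1, and 0 of these had one as large as that of PADI2. The nearest was ID3, the gene of an inhibitor of helix-loop-helix factors, at 2.88 ± 0.05 (SE) and 158 RPKM in RARG-KO, which is named here after its value was seen.

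PADI3 (ENSG00000142619, chromosome 1, 17249098 to 17284233, plus strand), the hair follicle and epidermal enzyme, was also higher in RARG-KO, at a far lower level. In replicates 1, 2 and 3 its CPM values were 1.00, 1.43 and 1.63 for WT, and 5.18, 4.10 and 5.31 for RARG-KO. The groups did not overlap, with the lowest RARG-KO library above 2 times the highest WT library. Over 3 libraries WT had 121 reads and RARG-KO 459. The means were 1.36 ± 0.32 and 4.87 ± 0.66 CPM, which is 3.58-fold or 1.84 ± 0.18 on the log2 scale, within 1.67 and 1.99 when single libraries were left out.

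PADI1 (ENSG00000142623, chromosome 1, 17205126 to 17246005, plus strand), the other epidermal enzyme, lies between PADI2 and PADI3 and did not separate the groups. It had 4.74, 6.61 and 6.19 CPM in WT and 6.56, 6.09 and 8.05 CPM in RARG-KO replicates 1, 2 and 3. WT replicate 2 lay above 2 of the RARG-KO libraries, so the groups overlapped. The means were 5.84 ± 0.98 and 6.90 ± 1.02 CPM, and the log2 fold change was 0.24 ± 0.13, within 0.11 and 0.33 without single libraries. Of the 3 PADI genes that passed the filter, PADI2 and PADI3 thus had groups that did not overlap, both upward. Among all genes tested 62.6% had groups that did not overlap, 31.5% upward, and since PADI2 chose the family nothing is read from this count.

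PADI4 (ENSG00000159339, 17308195 to 17364004), the neutrophil member, was covered by 2, 8 and 5 reads in the WT replicates 1, 2 and 3 and by 12, 0 and 2 in those of RARG-KO. Summed over the groups these were 15 and 14. PADI6 (ENSG00000276747, 17372196 to 17401699) was covered by 2 reads in WT replicate 2, 2 in RARG-KO replicate 2 and 0 in the other libraries. Both genes stayed under the filter, and no difference was detectable at this depth. A library with 0 reads allows up to 3 reads, or 0.0937 to 0.104 CPM, a limit that covers counting error only.

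Per length, the order in WT was PADI2, PADI1 at 1.19 ± 0.20 RPKM and PADI3 at 0.425 ± 0.101 (SD, n = 3). Below these were PADI4 at 0.056 ± 0.033 and PADI6 at 0.0093 ± 0.016. In RARG-KO the second place was shared, with PADI3 at 1.53 ± 0.21 and PADI1 at 1.41 ± 0.21 RPKM, which differed by less than their spread. PADI1 exceeded PADI3 per length in each WT library, by ratios of 3.07, 2.99 and 2.47 in replicates 1, 2 and 3. In each RARG-KO library the ratio was under 1, at 0.823, 0.965 and 0.985. PADI4 and PADI6 rested on too few reads to be ordered. PADI2 made up 83.5% to 87.1% of the family's level per length in WT and 96.9% to 97.4% in RARG-KO.

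The PADI genes are related in sequence, which bears on how reads are assigned. Each main transcript has 16 exons, and the coding sequences of PADI1, PADI2, PADI3 and PADI4 have 1992, 1998, 1995 and 1992 bases, against 2085 in PADI6. In aligned coding sequence PADI2 had 64.6% identity with PADI1, with PADI3 and with PADI4, and 61.1% with PADI6. The closest pair was PADI1 and PADI4 at 69.0%. The longest exact runs that PADI2 shares with PADI3 and with PADI4 are shown to give the scale of this likeness, in GENCODE 29 transcript sequence, 5′ to 3′.
PADI2 and PADI3: tgctggtgaactgtgaccg
PADI2 and PADI4: gccatcctgctggtgaactgtgac

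The run shared by PADI2 and PADI3 has 19 bases, and that of PADI2 and PADI4 has 24. The first starts at base 452 of the PADI2 coding sequence and base 449 of that of PADI3. No stretch of 30 bases of PADI2 transcripts recurred exactly in transcripts of another member. PADI3 gained 338 reads between the group sums and PADI2 gained 51065, so the gain of PADI3 came to 0.662% of that of PADI2. Whether any PADI2 reads were counted to PADI3 was not tested.

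None of the tested genes next to the cluster rose as far as PADI2. PADI2 was chosen for its rise and ranked 80 by log2 fold change among the 16996 genes tested. Few genes anywhere rose that far, so nothing is read from this. The neighbours were taken as the 20 tested genes on either side, and their median log2 fold change was 0.14, with 0.18 before the cluster and 0.09 after it, against 0.01 over all genes tested. Of the 40 neighbours, 13 rose, 6 fell and 21 did not pass the edgeR test. This is 47.5% called and 32.5% upward, beside 58.0% and 28.7% over all genes. Their log2 fold changes ran from -1.44 to 1.25, all under that of PADI2. The highest was the pseudogene MST1L, at 0.375 and 0.891 CPM in WT and RARG-KO, which lies within CROCC on the other strand. CROCC and the pseudogenes MST1P2, CROCCP2 and CROCCP3 rose as well. How reads were assigned among these genes, named here after their values were seen, was not tested. With 40 genes on each side the median was 0.04.

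The adjoining genes differed little between the groups. SDHB, which encodes a subunit of succinate dehydrogenase and adjoins PADI2, had 140 and 151 CPM in WT and RARG-KO, which is 0.11 ± 0.03 in log2 (adjusted p by edgeR 0.00739), a call lost without RARG-KO replicate 1 (0.0550). RCC2, a regulator of chromosome condensation next to PADI6, had 185 and 202 CPM, 0.12 ± 0.03 (edgeR adjusted p = 0.00430). Between PADI2 and PADI1, the noncoding gene AL590644.1 was at 32 WT reads and 11 of RARG-KO, below the filter and opposite in direction to PADI2, and AL590644.3 had 0 in every library. MIR3972, which lies within PADI3 on the same strand, had 0 and 2 reads.

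The genes whose values over the 6 libraries were most like those of PADI2 were found by the Euclidean distance between log2 CPM profiles centred on each gene's mean, among genes with at least 5 CPM in the higher group. The 5 nearest of 11278 genes compared were ATOH8 (distance 0.16), ID2 (0.19), FSTL1 (0.27), CSDC2 (0.30) and SEMA3E (0.30), where the median gene lay at 4.18. A total of 15 genes lay within 0.5. ATOH8, a helix-loop-helix transcription factor gene on chromosome 2, had 5.52 ± 0.53 CPM in WT and 55.9 ± 0.95 in RARG-KO. ID2 had 4.01 ± 0.25 and 46.8 ± 1.82 CPM. FSTL1, which encodes a secreted follistatin-like glycoprotein, had 6.19 ± 0.37 and 71.9 ± 2.47 CPM. CSDC2 (2188 reads) overlaps PMM1 (3654 reads) on the other strand, so its value is uncertain. The likeness is one of size and replicate pattern in libraries that share their group, and each of these genes had a lower CPM than PADI2.

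Genes of proteins that peptidylarginine deiminases are known to act on went in both directions. Of 37 listed, 30 were tested, of which 9 rose, 14 fell and 7 did not pass, and the median log2 fold change was -0.10. This is 76.7% called, beside 58.0% over all genes. VIM, the gene of vimentin, a substrate of PADI2, had 1703 ± 16.7 CPM in WT and 1703 ± 13.0 in RARG-KO, and its log2 fold change was 0.00 ± 0.02.

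The rises included POLR2A, the gene of the largest RNA polymerase II subunit, from 525 ± 14.0 to 732 ± 51.0 CPM (log2 0.48 ± 0.04; edgeR adjusted p = 9.17e-10), and H3-3A, a gene of histone variant H3.3, by 0.35 ± 0.04. The other gene of the same histone, H3-3B, fell by 0.16 ± 0.03. CXCL8, the gene of the chemokine interleukin-8, rose from 3.22 ± 0.41 to 13.1 ± 2.05 CPM (log2 2.02 ± 0.13). Another chemokine gene, CCL5, fell from 109 ± 3.32 to 28.8 ± 0.70 CPM (log2 -1.92 ± 0.05; edgeR adjusted p = 2.42e-18). MBP, the gene of myelin basic protein, fell by 0.75 ± 0.03 and PKM, a glycolytic enzyme gene, fell by 0.47 ± 0.03.

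The genes of the cornified envelope and hair follicle, where PADI1 and PADI3 act, mostly had few or no reads. Of 19 listed, 6 passed the filter, 0 rose and 2 fell, and 8 had 0 reads in all libraries, among them KRT1, LORICRIN and IVL. The called share of the tested genes was 33.3%, beside 58.0% over all genes. TCHH, the gene of trichohyalin, the hair follicle substrate of PADI3, fell from 2.93 ± 1.03 to 0.744 ± 0.296 CPM (log2 -1.97 ± 0.29, adjusted p by edgeR 4.91e-06). Its direction was thus opposite to that of PADI3. FLG, the gene of filaggrin, had 7.15 ± 0.23 and 7.31 ± 0.69 CPM and overlaps FLG-AS1 on the other strand. S100A3, a calcium-binding substrate of PADI3, fell by 1.05 ± 0.08 and overlaps the far more abundant S100A4. Without RARG-KO replicate 3 the list had 4 falls in place of 2.

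Transcription factors and receptors listed for a link to PADI genes or their promoters went in both directions. Of 17 listed, 16 were tested, 2 rose, 8 fell and 6 did not pass. The list had a median log2 fold change of -0.12 and 62.5% called, near the 58.0% over all genes. Its calls were mostly falls, where over all genes 28.7% were higher and 29.3% lower. SP1, which binds GC boxes such as those marked above, had 166 ± 2.81 and 161 ± 1.29 CPM (log2 -0.04 ± 0.03), and SP3 fell by 0.13 ± 0.04. ERBB2, the gene of the cell-surface receptor HER2 and no transcription factor, rose from 19.7 ± 1.63 to 62.2 ± 3.70 CPM (log2 1.66 ± 0.07, adjusted p by edgeR 7.77e-15). ERBB2, at 7607 reads, overlaps MIEN1 and PGAP3 of the other strand, the larger at 3398 reads. MZF1 rose by 0.23 ± 0.06 and overlaps noncoding genes on the other strand with more reads than its own. JUN (-0.75 ± 0.04), CEBPB (-1.29 ± 0.15) and GATA3 (-0.79 ± 0.09) fell.

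Protein arginine methyltransferases use the same residue as the deiminases. Of 12 listed genes of these enzymes and partners, 11 were tested, 6 rose, 1 fell and 4 did not pass. The list had a median log2 fold change of 0.28 and 63.6% called, near the 58.0% over all genes, 28.7% higher and 29.3% lower. PRMT2 rose from 44.2 ± 2.22 to 57.1 ± 2.33 CPM (log2 0.37 ± 0.05; edgeR adjusted p = 3.73e-06) and PRMT6, which methylates histone H3, by 0.41 ± 0.06. WDR77, the partner of PRMT5, rose by 0.30 ± 0.05 and overlaps ATP5PB (28221 reads beside 10944). PRMT1, the main enzyme of asymmetric methylation, had a log2 fold change of -0.05 ± 0.04 and PRMT5 one of 0.00 ± 0.04. FBXO11, an F-box protein gene whose place among these enzymes is disputed, fell by 0.20 ± 0.04. It shares its place with MSH6 of the other strand (41587 reads beside 14832).

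Citrulline also arises as a free amino acid, outside proteins, from other enzymes. Of 18 listed genes of free arginine and citrulline metabolism, 14 were tested, 5 rose, 7 fell and 2 did not pass. The list had a median log2 fold change of -0.35 and 85.7% called, beside 58.0% over all genes, 28.7% higher and 29.3% lower. DDAH1, which encodes an enzyme that releases citrulline from methylated arginine, fell from 149 ± 4.37 to 62.0 ± 1.29 CPM (log2 -1.27 ± 0.04, adjusted p by edgeR 1.23e-16). SLC7A1, an arginine transporter gene, fell by 0.74 ± 0.03 and OAT, the gene of ornithine aminotransferase, fell by 0.65 ± 0.04. CPS1, the entry enzyme of the urea cycle, rose from 4.69 ± 0.39 to 15.1 ± 0.43 CPM (log2 1.68 ± 0.09). NOS3, a nitric oxide synthase gene, rose from 0.854 ± 0.376 to 3.03 ± 0.25 CPM (361 reads, overlapping ATG9B of the other strand with 69 reads) and AZIN2 by a log2 of 0.60 ± 0.17.

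Deiminases need calcium, and genes that set cellular calcium changed on both sides. Of 30 listed, 28 were tested, 6 rose, 14 fell and 8 did not pass. The list had a median log2 fold change of -0.16 and 71.4% called, beside 58.0% over all genes, 28.7% higher and 29.3% lower. Calcium pumps of the plasma membrane moved in opposite directions, ATP2B1 from 152 ± 5.90 to 59.9 ± 2.73 CPM (log2 -1.34 ± 0.04; edgeR adjusted p = 2.37e-16) and ATP2B4 from 59.1 ± 0.56 to 132 ± 1.55 CPM (log2 1.16 ± 0.04; edgeR adjusted p = 2.98e-16). ITPR1, the gene of a calcium release channel, rose by 1.40 ± 0.05 and CALM3, a calmodulin gene, by 0.44 ± 0.03. The calcium-binding chaperone genes CALR and CANX also fell, with log2 fold changes of -0.80 ± 0.03 and -0.53 ± 0.03. Of the entry channel genes, ORAI1, ORAI2 and ORAI3 did not pass, with log2 fold changes of -0.08 ± 0.07, -0.12 ± 0.05 and 0.21 ± 0.14. TRPC1 and TRPM7 did not pass either, while TRPV6 fell by 1.05 ± 0.15 and P2RX4 rose by 0.26 ± 0.09 (edgeR adjusted p = 0.0155).

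Cell types known for PADI2 or PADI4 were looked for by their markers. In each marker list of this paragraph 100% of the few tested genes were called, beside 58.0% over all genes, 28.7% higher and 29.3% lower. Of 14 neutrophil and myeloid markers, 2 passed the filter and 5, MPO, FCGR3B, S100A8, S100A9 and S100A12, had 0 reads in all libraries. Their summed level was 5.43 to 5.89 CPM in WT and 2.12 to 3.15 CPM in RARG-KO, a fall carried by ITGAM and CD14. Below the filter, CD33 had 6 reads in all WT libraries and 40 in those of RARG-KO, and the neutrophil elastase gene ELANE 5 and 26, in the direction of PADI2. CD68 had 5 and 8. The opposite direction was seen for PTPRC at 6 and 1, CSF1R at 24 and 22, LYZ at 3 and 2 and CSF3R at 1 and 0. ITGAM fell by 1.77 ± 0.19, and CD14 fell by 1.06 ± 0.37 (edgeR adjusted p = 0.0194), a call lost without RARG-KO replicate 2 (0.118), WT replicate 1 (0.0523) or WT replicate 3 (0.0604) and with DESeq2 (0.0910). Of 11 oligodendrocyte and astrocyte markers, 2 passed, MBP and SLC1A3, the latter with 40 reads in all in WT and 0 in RARG-KO, while MOG, OLIG1, OLIG2 and SOX10 had 0 reads in all libraries. The summed level of this list, nearly all of it MBP, was 261 to 266 CPM in WT and 151 to 159 CPM in RARG-KO. Of 9 fibroblast markers 3 passed. COL1A1 rose from 102 ± 2.69 to 214 ± 7.16 CPM, THY1 rose by 1.34 ± 0.24 (325 reads, on the strand opposite to USP2-AS1 with 680 reads), COL3A1 fell by 0.81 ± 0.16 and DCN had 0 reads in all libraries. The summed fibroblast level, nearly all of it COL1A1, was 105 to 109 CPM in WT and 210 to 224 CPM in RARG-KO. It thus moved in the direction of PADI2 through that gene. Below the filter lay COL1A2 with 5 reads over WT and 7 over RARG-KO, LUM with 2 and 5, and PDGFRB with 12 and 27. FAP went from 11 reads to 0 and PDGFRA from 3 to 0. The part of the summed level in the PADI2 values was not tested.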

How the data were processed

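RNA-seq of 3 WT and 3 RARG-KO PANC1 libraries was used. The authors deposited whole-number counts of reads per Ensembl gene, without normalization. Per the submitters' processing notes, the tools were featureCounts, DESeq2, Bowtie2 2.2.3 and HISAT2 2.1.0, and the builds GRCh38 and hg38. For their roles, settings, annotation and use of strand, nothing is given in the sources used here, so overlapping genes on opposite strands cannot be told apart.

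Columns were matched to libraries by title. Groups were compared by edgeR 4.0.16 with its quasi-likelihood test (R 4.3.3, TMM factors, filterByExpr, group as the only term, Benjamini-Hochberg at 0.05 over 16996 genes). The test was also run on simulated counts in which a far smaller share of genes changed than was called here. That run does not show how the test performs at the share called here. Since replicates may be technical, p-values measure the spread between these libraries only. CPM are TMM-normalized. Symbols, positions and exon lengths came from GENCODE 29 and gene tables.

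Named were the PADI genes, RARG, the adjoining genes, overlapping genes, the 5 nearest profiles and up to 3 risen and 3 fallen members of each list with the smallest adjusted p. Further list members named for their role or for not passing were chosen after their values were seen. The family and the 10 gene lists were chosen with earlier results of these data known. Replicate pairs differed by more than sampling noise (chi-square per degree of freedom 2.14 to 5.14). Alternatives were DESeq2 1.42.0, its size factors, upper-quartile factors, no filter, a replicate block, other numbers of neighbours and each library left out.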

Additional observations from a re-analysis of the deposited data

How the results depend on the processing

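PADI2 kept its direction under all 11 alternatives, with log2 fold changes of 3.38 to 3.46, and PADI3 (1.67 to 1.99) and PADI1 (0.11 to 0.33) kept theirs. The count of genes that differed ran from 8729 with DESeq2 to 10126 without a filter, and from 9081 to 9958 when single libraries were left out. The genes of the 10 lists together gave 31 to 34 rises and 52 to 57 falls. Over all genes 28.7% were higher and 29.3% lower in RARG-KO. Since the lists were chosen with earlier results known, nothing is read from their counts. The median of the chromosome neighbours ran from 0.12 to 0.16 without single libraries, was 0.18 with upper-quartile factors and moved to 0.0366 with 40 genes on each side, which takes in more distant genes. Without a filter, 2 neutrophil and myeloid markers rose, CD33 and ELANE, and with DESeq2 1 did, CD33, which also passed the filter and rose without RARG-KO replicate 3 or any 1 WT replicate. Replicate numbers are shared between the groups but did not pair the libraries, with correlations of deviations of 0.0137, -0.0514 and -0.00744 for numbers 1, 2 and 3. With the replicate block 9258 genes differed, and the PADI2 log2 fold change was 3.42. Depth limits PADI4 and PADI6, which had 0 to 12 reads per library.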
